A study of Mus musculus with 4 samples.

Results

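The cardiac T-box genes are the members of the T-box family of transcription factors best known from heart development, taken here as Tbx1, Tbx2, Tbx3, Tbx5, Tbx18 and Tbx20. The 6 genes were chosen by name, and every peak of the 5 deposited Smad1 peak lists that lay within 50 kb of 1 of their annotated bodies was taken, so that the neighbours Tbx3 and Tbx5 could be read side by side. This gave 3 of the 10466 common DMSO sites (the peaks that both peak callers found), 4 of the 15927 peaks of the DMSO MACS list and 13 of the 26070 peaks of the DMSO QESEQ list. It also gave 6 of the 16261 peaks of the IWR-1 QESEQ list and 3 of the 7815 peaks of the second MACS list. Merged where they shared at least 1 bp, these peaks formed 16 loci. The genes are 6 of the 21938 protein-coding genes of GENCODE M21 on mm10.

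Smad1 was mapped by ChIP–seq in EBs (embryoid bodies, clumps of ES cells undergoing differentiation) grown from the GFP-Bry ES cell line, which carries GFP in the Brachyury locus and is labelled as strain C57BL/6. On day 4, EBs had been treated for 24 h either with 10 µM IWR-1, an inhibitor of canonical Wnt signalling, or with its solvent DMSO. From each treatment 1 ChIP library and 1 input library were sequenced, so differences between treatments have no replicate check and carry no p-value. The comparison asks at which sites Smad1 was still called once Wnt signalling was inhibited.

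The labels of the lists and their contents do not match. The common DMSO sites and the DMSO MACS list carry the label of the DMSO input, and the DMSO QESEQ list carries that of the IWR-1 input. They are treated together as the DMSO lists because the common sites are all found base for base among these QESEQ intervals, and each touches a DMSO MACS peak. Shared coordinates show that the lists belong together, not which treatment they come from. That they are DMSO is an assumption, which the label of the DMSO QESEQ list goes against. For the IWR-1 QESEQ list, label and name match (IWR-1 ChIP). By its label the second MACS list is the DMSO ChIP, and it is given to IWR-1 by elimination. Of its peaks, 58.2% met DMSO MACS, 54.9% IWR-1 QESEQ and 50.9% DMSO QESEQ, although DMSO QESEQ covers more of the genome than IWR-1 QESEQ. Of the 15927 DMSO MACS peaks, by contrast, 11181 met DMSO QESEQ and 5096 IWR-1 QESEQ. Calls are therefore given from the IWR-1 QESEQ list first, and those of the second MACS list are named as such. A missing call says that a caller's threshold was not passed, not that binding was lost, and the read depth behind a peak is unknown.

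T-box factors bind DNA through a shared T domain and act in combination, some as activators and others as repressors, to divide the heart tube into regions. BMP receptors activate Smad1, which enters the nucleus with Smad4, and BMP signals are known to act upstream of several T-box genes in heart mesoderm. Tbx5 and Tbx20 take part in forming the chambers, Tbx2 and Tbx3 hold back chamber genes in the atrioventricular canal and conduction system, Tbx1 acts in the pharyngeal mesoderm that builds the outflow tract, and Tbx18 acts in the sinus horns and epicardium.

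The sequences printed to show what the loci look like are the central 200 bp of 1 locus per gene: the common site with the highest score, else the DMSO MACS peak with the highest score, else the DMSO QESEQ peak nearest the start of the main transcript. The other common site of Tbx20 was added after its values were seen. Sequence elements, GC content and runs are counted below over whole loci, of which the printed bases are a part. All are given on the plus strand of GRCm38 (mm10), with capitals for matches to the 10 short sequences searched, which here are the Smad sequence CAGACA, the GATA sequence AGATAA and runs of 7 or more A, on either strand.
Tbx5 common site, chr5:119840485-119840684: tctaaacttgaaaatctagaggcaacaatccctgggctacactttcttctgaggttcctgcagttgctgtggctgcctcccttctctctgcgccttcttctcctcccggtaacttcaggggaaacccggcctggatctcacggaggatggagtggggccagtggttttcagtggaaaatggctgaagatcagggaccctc
Tbx20 intronic common site, chr9:24745230-24745429: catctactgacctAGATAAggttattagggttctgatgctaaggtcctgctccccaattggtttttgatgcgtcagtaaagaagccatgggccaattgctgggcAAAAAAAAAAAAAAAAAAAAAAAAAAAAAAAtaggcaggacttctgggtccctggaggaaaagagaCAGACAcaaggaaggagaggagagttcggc
Tbx20 distal common site, chr9:24695466-24695665: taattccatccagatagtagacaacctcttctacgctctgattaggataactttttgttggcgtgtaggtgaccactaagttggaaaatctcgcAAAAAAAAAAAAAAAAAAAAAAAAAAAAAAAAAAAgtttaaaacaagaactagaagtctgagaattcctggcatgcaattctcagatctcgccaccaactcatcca
Tbx1 MACS peak, chr16:18533099-18533298: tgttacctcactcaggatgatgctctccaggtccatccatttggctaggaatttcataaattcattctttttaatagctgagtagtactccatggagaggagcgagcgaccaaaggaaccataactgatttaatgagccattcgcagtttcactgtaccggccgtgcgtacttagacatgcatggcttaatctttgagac
Tbx2 QESEQ peak, chr11:85806500-85806699: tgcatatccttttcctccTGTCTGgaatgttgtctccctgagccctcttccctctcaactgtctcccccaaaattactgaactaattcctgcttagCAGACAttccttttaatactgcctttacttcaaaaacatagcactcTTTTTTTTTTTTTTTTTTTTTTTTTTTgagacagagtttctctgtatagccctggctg
Tbx3 QESEQ peak, chr5:119650128-119650327: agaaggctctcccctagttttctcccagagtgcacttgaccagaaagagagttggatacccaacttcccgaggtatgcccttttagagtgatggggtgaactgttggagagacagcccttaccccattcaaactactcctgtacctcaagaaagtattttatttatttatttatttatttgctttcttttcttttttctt
Tbx18 QESEQ peak, chr9:87746216-87746415: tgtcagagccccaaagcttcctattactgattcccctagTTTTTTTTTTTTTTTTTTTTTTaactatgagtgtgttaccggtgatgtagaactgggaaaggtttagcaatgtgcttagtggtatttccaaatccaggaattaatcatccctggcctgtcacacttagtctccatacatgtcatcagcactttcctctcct

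Tbx5, required for the formation of the atria and left ventricle, lies on the plus strand of chromosome 5 (chr5:119832668-119885219). Its common DMSO site (chr5:119840397-119840771) was centred 7.9 kb from the gene start and 5.9 kb from the start of the main transcript. Of its 375 bp, 5 bp were coding sequence of exon 4 and the rest was intron 3, where all of the printed bases lie. Around it, QESEQ alone called 3 further DMSO peaks. The QESEQ peak furthest from the gene (chr5:119909433-119909953) was intergenic, centred 77.0 kb from the gene start with its near edge 24.2 kb beyond the gene end, and held a run of 21 A or T. At the QESEQ peak centred 38.5 kb from the gene start, 197 of 454 bp were coding sequence of exon 8 of the 9 exons. None of the 3 DMSO peaks outside the common site was met by a peak of the IWR-1 QESEQ or the second MACS list. Inside the Tbx5 window, calls of both treatments thus met at 1 of 4 loci, near the 25.8% of all DMSO QESEQ peaks that IWR-1 QESEQ called.

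Tbx20, a regulator of chamber myocardium, lies on the minus strand of chromosome 9 (chr9:24718138-24774303) and had the other 2 common sites. The intronic common site (chr9:24745127-24745531) lay in intron 6 of the main transcript, centred 29.0 kb from the gene start. The distal common site (chr9:24695300-24695830) lay 22.3 kb beyond the Tbx20 end, and its centre was 728 bp from the start of Dpy19l2, a gene better known from sperm head formation. It covered 49 bp of coding sequence in exon 1 of Dpy19l2 and ran into intron 1 of that gene, so Tbx20 was not the gene nearest to it. IWR-1 QESEQ called both. Upstream of Tbx20, at chr9:24790296-24790934, IWR-1 QESEQ also called a peak that no DMSO list held, centred 16.3 kb from the gene start in intron 1 of the non-coding gene Gm29824. Tbx20 was the member with the most IWR-1 QESEQ peaks, 3 against 2 DMSO QESEQ peaks, and its window of 156.2 kb was the widest of any member. Over the windows of all members, IWR-1 QESEQ peaks numbered 7.79 per Mb, against 7.81 for all protein-coding genes.

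**Figure D1:**
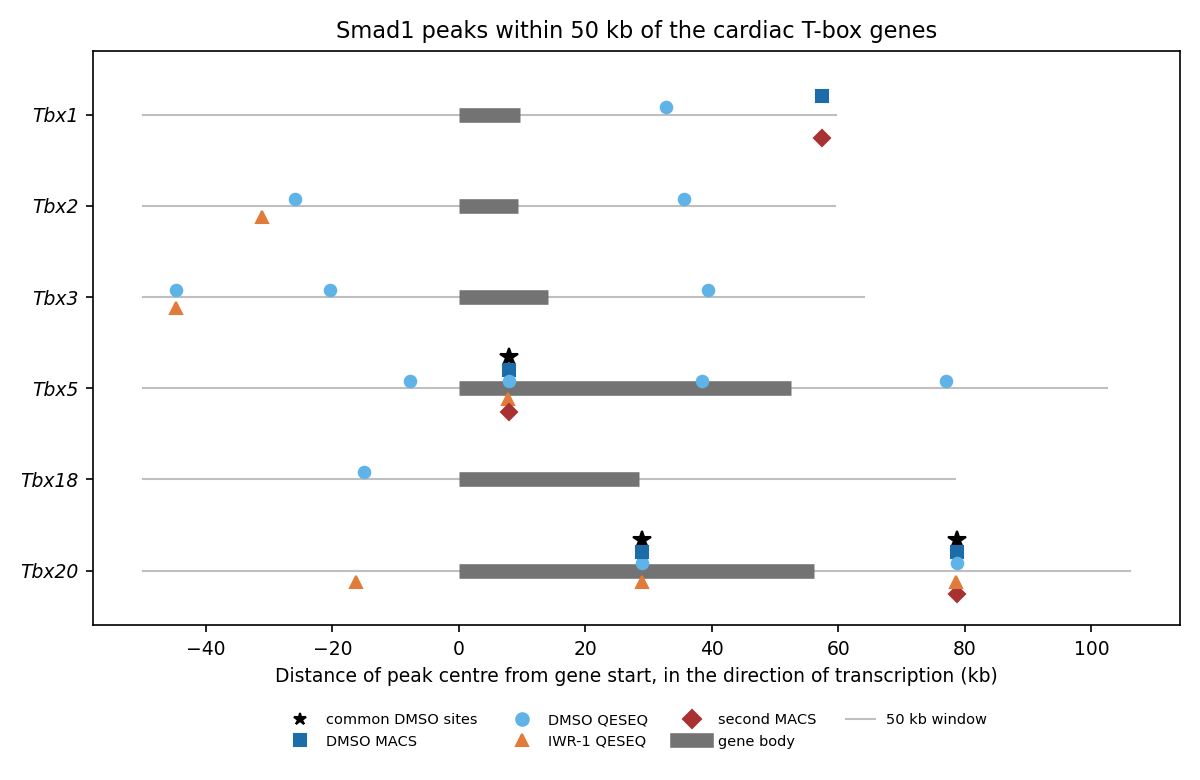
Peaks of the 5 lists within 50 kb of the 6 cardiac T-box genes, with the distance of the peak centre from the gene start in kb on the x axis, positive in the direction of transcription. Grey bars are gene bodies, thin lines the windows and symbols the lists; stars, the common DMSO sites, are at Tbx5 (1) and Tbx20 (2).

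Each of the 3 common sites was called by QESEQ under IWR-1 (100.0%, 95% Clopper-Pearson interval 29.2–100.0), against 37.0% of all common sites (3875 of 10466). In the second MACS list 2 of the 3 had a call (66.7%, 9.4–99.2), against 25.8% of all common sites, and the site without one was the intronic site of Tbx20. Both intervals reflect counting error alone, and both hold the share over all sites. With a window of 100 kb, the share of common sites called by IWR-1 QESEQ was 57.1%. The calls differed in extent. At the intronic Tbx20 site the IWR-1 QESEQ peak covered 96.5% of the site, with its centre 91 bp away. At the Tbx5 site it covered 74.9% and its centre lay 131 bp from that of the site. At the distal Tbx20 site a QESEQ peak of 188 bp covered 35.4%, so this site would lose its call if 50% of it had to be covered. The peaks of the second MACS list were centred 29 bp from the Tbx5 site's centre and 2 bp from that of the distal Tbx20 site.

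**Figure D2:**
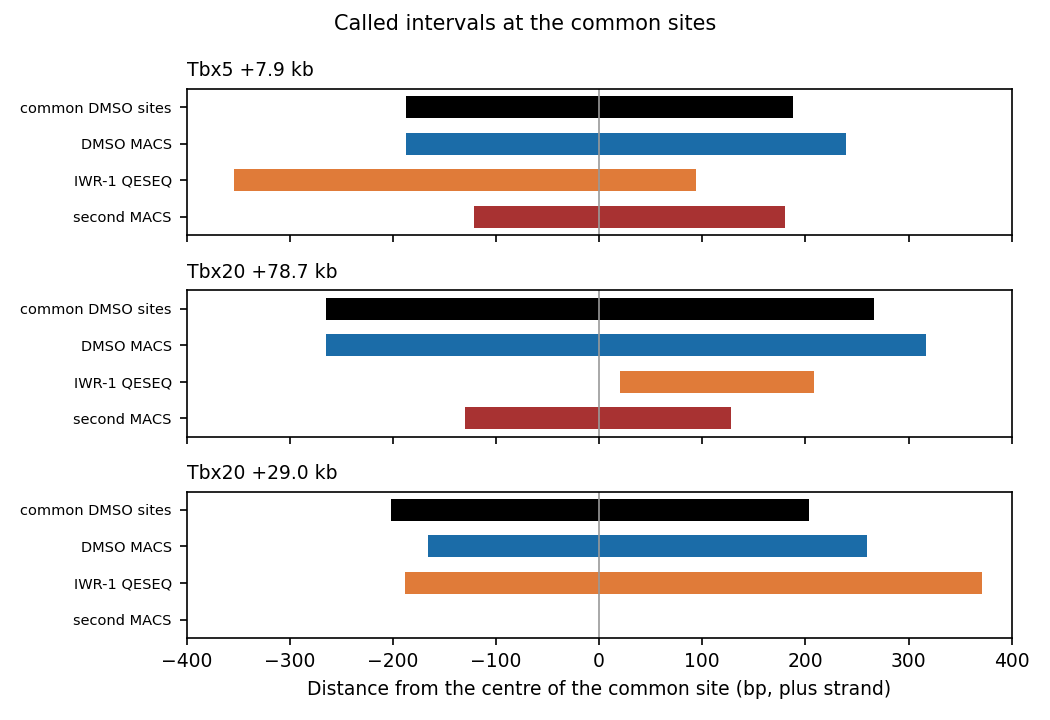
Intervals called at the 3 common sites, drawn by distance from the centre of the common site in bp along the plus strand, with 1 bar per list. The IWR-1 QESEQ bar covers 74.9% of the Tbx5 site, 35.4% of the distal Tbx20 site and 96.5% of the intronic one, and the second MACS list has no bar at the last.

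Tbx3 and Tbx2, repressors of chamber genes, had no common site and no MACS peak within 50 kb. Tbx3 (chr5:119670669-119684724, plus strand) had 3 DMSO QESEQ peaks. The peak centred 44.7 kb upstream (chr5:119625742-119626119) overlapped 89 bp of exon 1 of the non-coding gene Gm16063 and intron 2 of the antisense gene Tbx3os1. IWR-1 QESEQ called it again over 311 bp, or 82.3% of the DMSO peak. The peak centred 20.4 kb upstream, printed above, and the downstream peak centred 39.4 kb from the gene start (chr5:119709798-119710436) had no call in either list. Tbx2 (chr11:85832551-85841948, plus strand) had 2 DMSO QESEQ peaks and 1 peak from IWR-1 QESEQ alone, and none of the 3 overlapped another. The IWR-1 peak (chr11:85801098-85801775) was centred 31.1 kb upstream, in intron 23 of Bcas3. The printed DMSO peak, 26.0 kb upstream, lay in intron 24 of the same gene. The other DMSO peak (chr11:85867768-85868399) was centred 35.5 kb from the Tbx2 start, in the 44.5 kb between Tbx2 and Tbx4, a T-box gene of the hindlimb and lung, and was the only peak of any list between them.

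Tbx3 and Tbx5 lie on the same strand with 147.9 kb between them. Their 50 kb windows do not meet, and each had its own peaks. From the last Tbx3 peak to the peak upstream of Tbx5, a stretch of 114.4 kb held no peak of any list. As a gap between neighbouring DMSO QESEQ peaks it was not unusual, since 25.4% of the 26046 such gaps were longer and the median was 46.8 kb. Gaps free of peaks of every list were not counted. Of the 7 DMSO QESEQ peaks at this pair of genes, 2 had a call under IWR-1, 1 at each gene, against 25.8% of all DMSO QESEQ peaks.

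Tbx1 (chr16:18580979-18590671, minus strand) and Tbx18 (chr9:87702800-87731260, minus strand) had the fewest loci. Tbx18 had 1, a DMSO QESEQ peak centred 15.1 kb upstream in intergenic sequence, with no call under IWR-1. At Tbx1 both loci lay downstream, inside Gnb1l, a neighbour that encodes a WD-repeat protein. A DMSO QESEQ peak (chr16:18557582-18558289) lay in intron 7 of Gnb1l, centred 32.7 kb from the Tbx1 start. The other locus, in intron 2 of Gnb1l, was a DMSO MACS peak (chr16:18533012-18533384) and a peak of the second MACS list (chr16:18533036-18533423) that covered 93.6% of it, and neither QESEQ list had a call there. It was the member peak with the highest score in either MACS list and lay 47.6 kb from the gene body, close to the limit of the window. Bases masked as repeats made up 61.9% of it, against a median of 41.8% over the DMSO MACS list. Whether reads from repeated sequence raised its score was not tested.

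The score that MACS gives a peak rises as the peak's p-value falls, and is not a measure of enrichment alone. It was ranked only within its own list, where the lowest value was 50.00 and the median for DMSO was 65.3. The Tbx1 peak had a score of 163 in the DMSO list, above 95.9% of that list. The distal Tbx20 site followed with 86.2 (above 80.9%), then the Tbx5 site with 80.9 (above 76.0%) and the intronic Tbx20 site with 71.0 (above 61.9%). All 4 thus ranked above the middle of the list, and none of the common sites reached 100. In the second MACS list the scores were 216 for the Tbx1 peak (above 94.9%), 67.4 for the Tbx5 site (above 60.4%) and 56.5 for the distal Tbx20 site (above 30.5%). Of the 4 DMSO MACS peaks, 3 overlapped a DMSO QESEQ peak (75.0%, 19.4–99.4), against 70.2% of the list and 65.9% of its 648 peaks with a score at least that of the Tbx1 peak. A MACS peak without a QESEQ call was therefore common at that score.

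**Figure D3:**
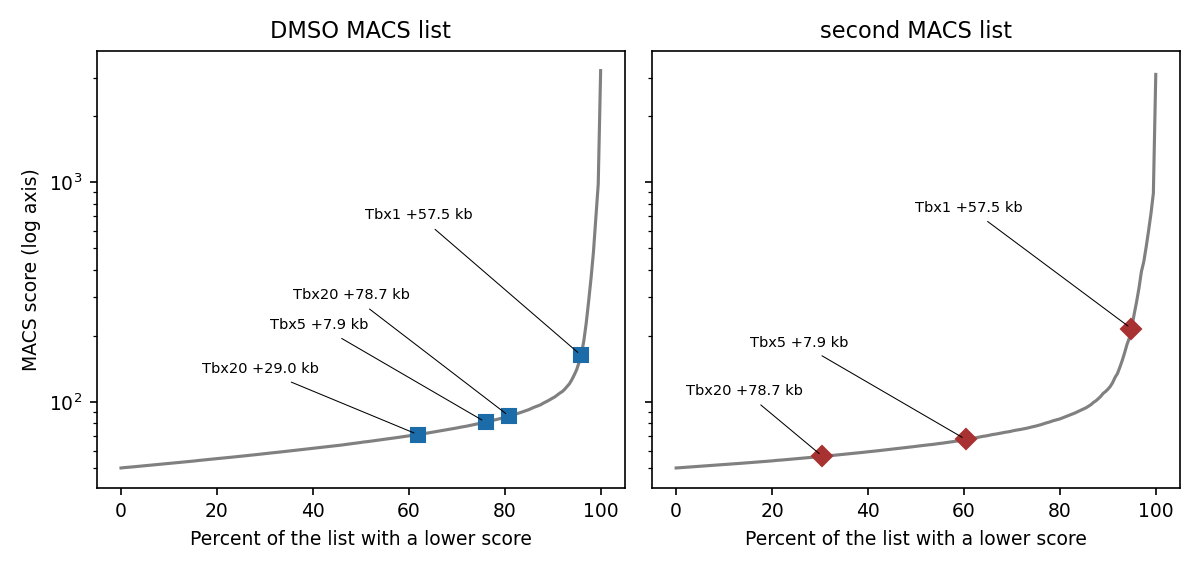
MACS score on a log axis against the percent of the same list with a lower score, for the DMSO MACS list and the second MACS list. Grey lines are the whole lists and symbols the member peaks, of which the Tbx1 peak ranks highest in both, with 163 and 216.

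Across all members, 4 of the 13 DMSO QESEQ peaks overlapped an IWR-1 QESEQ peak (30.8%, 9.1–61.4), against 25.8% of the whole list. The share was near that of all peaks, and the 4 were the 3 common sites and the distal Tbx3 peak. All 9 without a call were peaks of QESEQ alone. Of the 4 DMSO MACS peaks, 3 had a call in the second MACS list (75.0%, 19.4–99.4), against 28.5% of all DMSO MACS peaks. With a window of 100 kb, this share was 33.3%. Read from the IWR-1 side, 2 of the 6 QESEQ peaks, at Tbx2 and Tbx20, met no peak of either DMSO list (33.3%, 4.3–77.7), against 52.9% of all IWR-1 QESEQ peaks. All 3 peaks of the second MACS list overlapped a DMSO peak of either caller (100.0%, 29.2–100.0), against 71.0% of the 7815. By locus, 14 of 16 had a DMSO call, of which 4 were called again by IWR-1 QESEQ, or 5 when the second MACS list was counted too.

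A common site lay within 50 kb of 2 of the 6 genes (33.3%, 4.3–77.7), against 52.1% of all protein-coding genes (11423 of 21938). A DMSO QESEQ peak lay within 50 kb of all 6 (100.0%, 54.1–100.0), against 76.7%. Per Mb of window, the members held 3.89 common sites and 16.9 DMSO QESEQ peaks, and the windows of all protein-coding genes 4.87 and 12.4. For the other 11 T-box genes, described below, the values were 11.3 and 24.7. No member had a DMSO peak of either caller within 1 kb of the gene start (0 of 6, up to 45.9%), against 6.18% of all protein-coding genes. Counting peaks of all 5 lists, those under IWR-1 too, the peak nearest to the start of a main transcript was 5.6 kb away, at Tbx5. Of the 16 loci, 3 lay within a member gene, 7 upstream and 6 downstream. RefSeq promoters of the same build were found for Tbx1, Tbx18 and Tbx20 and overlapped no peak, so none is printed.

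The other 11 T-box genes were counted in the same windows. A common site lay near 8 of them, against 52.1% of protein-coding genes. Of these 16 sites, 3 were called by IWR-1 QESEQ and 3 in the second MACS list, against 37.0% and 25.8% of all common sites. Tbx15, of skin and skeletal patterning, had 5 common sites and Tbx19, of the pituitary, had 4. Eomes, which acts in early mesoderm upstream of the cardiac lineage, had 2, and T (Brachyury) had 1, with no peak of the IWR-1 QESEQ or the second MACS list in its window. Whether the groups of genes differ was not tested. Over the 4 called lists, the genes closest to Tbx5 in peak number were Eomes, Tbx4, Tbx10 and Tbx21, tied with a summed difference of 2 peaks. Tbx4 shares with Tbx2 the peak that lies between them, and that peak is counted for both.

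**Figure D4:**
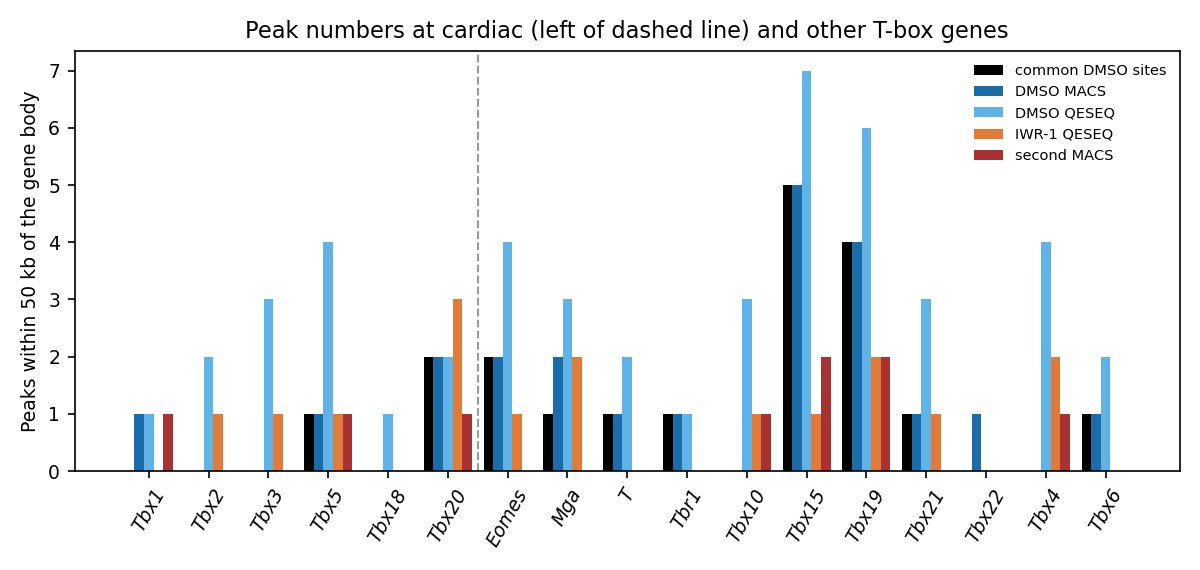
Number of peaks of each of the 5 lists within 50 kb of the gene body for the 6 cardiac T-box genes, left of the dashed line, and the other 11 T-box genes. Among the cardiac genes only Tbx5 and Tbx20 have black bars, the common DMSO sites, as do 8 of the other 11.

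Sequence elements were searched on both strands. GGCGCC stands for the GC-rich Smad element, with GGAGCC as its variant. CAGACA is the short Smad sequence, and the Smad palindrome is GTCTAGAC. CTTTGAT is the TCF/LEF sequence, with the variant CTTTGTT. For GATA factors AGATAA was searched, AGGTGT for a core of the T-box site and TGACTCA for AP-1, and AAAAAAA marks runs of A. None of these contains another, although neighbouring matches can share end bases. No GC-rich Smad element was found in any of the 3 common sites, against 18.9% of all common sites and 19.8% of equally wide intervals placed 2 kb from them. The Tbx5 site held none of the 10 sequences, as did 2.50% of common sites. Its GC content was 51.2% against a median of 41.5%. The intronic Tbx20 site held CAGACA and AGATAA, found in 3350 and 2206 of the 10466 common sites, and in 35.0% and 24.8% of the intervals 2 kb away, and the distal Tbx20 site held only a run of A. Over all 16 loci, CAGACA was present in 7, with the most matches (4) in the Tbx2 peak 35.5 kb from the gene start, against 35.1% of DMSO QESEQ peaks. AGATAA was present in 4 loci, against 22.5%. Among the other loci, GGAGCC occurred at Tbx2 (downstream, 35.5 kb from the gene start), Tbx5 (7.7 kb upstream) and Tbx20 (16.3 kb upstream), and is found in 19.1% of DMSO QESEQ peaks. CTTTGAT occurred in 2 loci, once in the downstream peak of Tbx3 and at 2 places in the Tbx5 peak over exon 8, against 7.96% of DMSO QESEQ peaks. CTTTGTT occurred only in the upstream Tbx20 locus, against 12.5%. TGACTCA was found in 2 loci, at 2 places in the Tbx3 downstream peak and at 1 in the Tbx3 peak 44.7 kb upstream, which IWR-1 QESEQ called, against 7.25%. AGGTGT was found in the Tbx3 downstream peak and in the Tbx2 peak 26.0 kb upstream, there outside the printed bases, against 24.6%. A match here is a match of letters and no measure of binding.

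Runs of A or T divided the loci. A run of at least 20 bp was present in 8 of the 16, against 59.4% of DMSO QESEQ peaks, 74.2% of common sites and 1.39% of windows 2 kb from common sites. Both Tbx20 common sites held a long run, of 31 bp in intron 6 and 35 bp beside Dpy19l2, visible in the sequences printed above near the centre of each site. The run of 35 bp was the longest of the 16 loci. At the Tbx5 common site the longest run was 5 bp. Common sites whose longest run was under 7 bp, as at Tbx5, numbered 1015, and 44.0% of them had an IWR-1 QESEQ call (41.0–47.2). Of the 7766 with a run of at least 20 bp, 36.9% had one (35.8–38.0). In the second MACS list the shares were 39.1% (36.1–42.2) and 24.7% (23.7–25.7). The printed peaks of Tbx2 and Tbx18 held runs of 27 and 22 bp, and those of Tbx3 and Tbx1 runs of 24 and 15 bp outside the printed bases. The part of these runs in the calls was not tested.

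**Figure D5:**
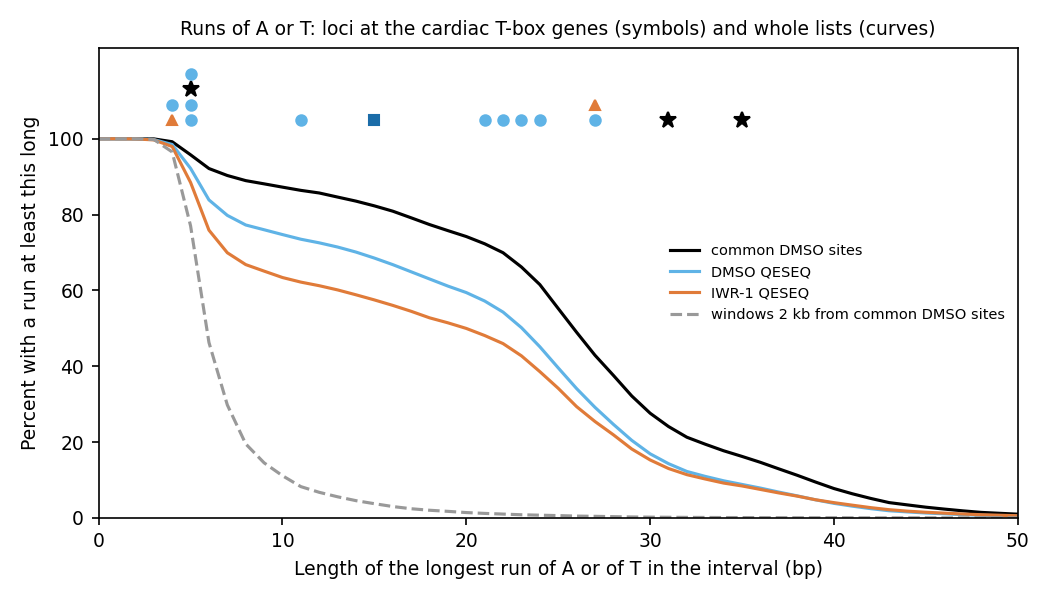
Percent of intervals whose longest run of A or of T is at least as long as the x axis value in bp, for 3 lists (solid) and for windows 2 kb from common DMSO sites (dashed). Symbols above the curves are the 16 loci, placed on the x axis by their own longest run; the Tbx5 common site (star) is at 5 bp and the Tbx20 ones at 31 and 35 bp.

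The window of 50 kb decides which peaks are counted, so those at its limit are given. Just inside lay the Tbx1 MACS peak, 47.6 kb from the gene body, and the Tbx3 QESEQ peaks, 44.5 kb away. Just outside lay an IWR-1 QESEQ peak 53.5 kb from Tbx3 (chr5:119616683-119617206) and DMSO QESEQ peaks 58.6 kb from Tbx3 and 58.7 kb from Tbx2. The next common site was 60.1 kb from Tbx1 (chr16:18520550-18520854), with a DMSO MACS score of 65.5. Between 50 and 100 kb there were 4 common sites, 3 near Tbx1 and 1 near Tbx3, of which 1, at 84.1 kb from Tbx1, had an IWR-1 QESEQ call and none a call in the second MACS list. Other genes shared the windows: Gnb1l, Gp1bb, Sept5 and Gm49601 code for protein near Tbx1, Bcas3, Gm11444 and Tbx4 near Tbx2, and Dpy19l2 near Tbx20. The windows of Tbx3, Tbx5 and Tbx18 held no other protein-coding gene. Which gene a peak acts on was not measured.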

How the data were processed

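Single-end reads of 2 Smad1 ChIP and 2 input libraries were aligned by the authors to mm10 with Bowtie2 (2.1.0 in the submitters' processing notes, which also name CASAVA 1.8 and MACS 1.0.1), and PCR duplicates were removed. Peaks were called per library with MACS and with QESEQ. The deposited MACS lists give positions and a score per peak as MACS wrote it, and the other deposited lists give positions only. Reads were not used here, so the depth behind a peak is unknown.

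The DMSO lists were grouped by their coordinates and assumed to be DMSO. The IWR-1 QESEQ list was identified from its label and name, and the second MACS list by elimination. Starts were taken as counted from 0 and are printed counted from 1; for QESEQ this is an assumption that could move a start by 1 bp. Distances were measured to GENCODE M21 gene bodies, and the main transcript is the principal coding transcript. Overlap meant at least 1 bp. Shares carry 95% Clopper-Pearson intervals. Sequence came from GRCm38, whose lower-case bases in the source are the masked repeats. In the sequences printed above, lower case does not mark repeats. Motifs were searched on both strands. The overlap, distance, exon and motif functions were first tested on simulated peaks. Software was Python 3.11.15 with pysam 0.24.0, scipy 1.17.1, numpy 2.4.6 and, for plots, matplotlib 3.10.9.

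The members, the other T-box genes and the sequences searched were chosen with earlier results of these data known. All peaks of the members are named by rule; the lengths of runs, the split of common sites by run and the second Tbx20 sequence were added after values were seen. Alternatives covered the window, the list, the overlap, the score and the motif window. Expression data and ChIP–qPCR were not analysed here.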

Additional observations from a re-analysis of the deposited data

How the results depend on the processing

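Of 31 alternatives set beside the main values, 25 left a count within 1.5 times its main value or a share within its 95% interval. With a window of 100 kb, common sites numbered 7 in place of 3 and genes with one 4 in place of 2, since more sequence was searched. With only sites of DMSO MACS score at least 100, there were 0 common sites, and the share with an IWR-1 call could not be computed. Counting a peak of either DMSO list in place of a common site, all 6 genes had one. The share of peaks outside both DMSO lists was 0.0% in place of 33.3% when the second MACS list replaced IWR-1 QESEQ, and 0.0% with a window of 10 kb. No GC-rich Smad element appeared in the 3 common sites when only the central 200 bp were searched or when 200 bp were added on either side. Other gene windows were not tried for this count.

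With 3 common sites, intervals of shares span most of the range, so a share within its interval says little. Some shares counted among the 25 still changed by more than 1.5 times. With a window of 100 kb, the share of common sites with an IWR-1 QESEQ call fell from 100.0% to 57.1%. In the same window the share of DMSO MACS peaks with a second MACS call fell from 75.0% to 33.3%, near the 28.5% of the whole DMSO MACS list. With a window of 10 kb, the share of DMSO QESEQ peaks with an IWR-1 QESEQ call rose from 30.8% to 50.0%. No paired analysis was possible because each treatment had 1 library and no test was made. The lists hold no read counts, so a fall in signal that stays above a caller's threshold cannot be seen, and a call lost near the threshold cannot be told apart from one lost by a wide margin.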
